A study of Mus musculus with 8 samples.

Results

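Expression of 50 genes of mitosis and the G2/M transition was examined in mouse DN3 thymocytes, immature T cell precursors that rely on Notch signalling. The genes were read as 1 probe set each, the one with the highest mean over all arrays among those whose platform annotation names the gene alone, and all 50 were found among the 18193 genes measured. The study compared wild-type (WT) with Ikaros-deficient (IkL/L) cells, each kept for 16 h with the gamma-secretase inhibitor MRK-003 (GSI; labelled 5 mM) or with DMSO as the vehicle, which gave 4 groups of 2 arrays (WT or IkL/L cells, under DMSO or GSI). Thymocytes depleted of lineage-positive cells had been cultured on OP9 DL1, stromal cells engineered to express a Delta ligand of Notch, and cells without lineage markers or CD44 but with CD25 were then sorted, so every group had been in contact with that ligand. The labels do not describe the IkL allele, the number or age of the mice, and do not say that replicates were separate cultures; p-values therefore reflect the spread between these arrays alone, which may be technical.

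Levels are the authors' log2 values, on which a difference of 1 is a 2-fold change, and array medians over all probe sets lay between 5.25 and 5.33. Ikzf1, which encodes Ikaros, was at 11.95 and 12.17 with DMSO against 12.18 and 11.95 with GSI in WT, and 11.14 and 11.19 against 11.75 and 11.52 in IkL/L. It was thus lower on all IkL/L arrays than on the WT arrays but still measured there, and the position of its probe set within the locus was not analysed here. All 8 T lineage markers measured were above the median gene on every array, while no B or erythroid marker was. Of these 8 markers Il2ra and Ptcra fell with GSI. Their products are CD25 and the alpha chain of the pre-T cell receptor. The average log2 differences were -2.28 ± 0.11 and -1.99 ± 0.11 SE (limma, adjusted p = 7.2e-05 and 0.00012). The other 6 did not pass in this average, and 5 of the 8 lay above 0 (median 0.19). In IkL/L cells 2 of the 8 were called higher and 2 lower, and in WT cells 0 and 2. Of 3 markers of later thymocytes Cd4 rose (0.77 ± 0.18, adjusted p = 0.015), from 6.23 and 6.57 to 7.88 and 7.36 in IkL/L cells, and Cd8a reached 8.43 on IkL/L GSI replicate 1. Of 5 myeloid markers Lyz2 rose (1.68 ± 0.19, adjusted p = 0.00068), from 5.96 and 6.23 to 8.42 and 8.78 in IkL/L cells, and no other was above the median gene. Il2ra, Ptcra, Cd4 and Lyz2 thus moved with the treatment, and the part of marker changes in the results was not tested. Of 12 stromal markers between 5 and 10 were above the median gene on an array, and Col1a2 reached 10.65 on WT GSI replicate 1. Their mean level was 7.21 and 6.29 with DMSO against 8.01 and 6.02 with GSI in WT, and 7.56 and 6.54 against 7.67 and 7.13 in IkL/L, so stromal transcripts were measured throughout, with replicate 1 above replicate 2 in each group. The GAPDH control, read at its 3' minus its 5' end as a measure of RNA integrity, gave log2 differences of 1.71 and 2.12 with DMSO against 2.20 and 3.08 with GSI in WT, and 1.87 and 2.47 against 3.09 and 3.03 in IkL/L.

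A dividing cell enters mitosis when CDK1 bound to an A- or B-type cyclin becomes active, with Polo-like and Aurora kinases acting beside it. Chromosomes are then compacted by condensin, attached to the spindle through kinetochores under the watch of the spindle assembly checkpoint, and separated once the anaphase-promoting complex (APC/C) marks securin and cyclins for destruction. Most of these genes are transcribed late in the cell cycle and are held down by the DREAM complex in resting cells. The MuvB core with B-MYB and FOXM1 switches them on through promoter elements known as CHR. CCAAT boxes are a separate promoter element, bound by another factor. In the thymus, DN3 cells divide in bursts around the pre-T cell receptor checkpoint, and Notch signals support their growth.

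Most mitotic genes were lower with GSI in both genotypes. In the average of the WT and IkL/L responses, 36 of the 50 fell, Pttg1 and Smc4 rose, and 12 did not pass (limma, Benjamini-Hochberg adjusted p below 0.05 over all 18193 genes); of all genes, 12.5% were called lower and 10.8% higher. The median log2 difference of the 50 genes was -0.72, against a median of 0.00 over all genes, and single genes ran from -1.52 (Aurkb) to 0.49 (Pttg1). Of the 50 genes 38 were lower on both GSI arrays than on both DMSO arrays in each genotype, which held for 15.6% of all genes, and Pttg1 and Smc4 were higher in the same sense (13.7%). The mean level of the 50 genes was 10.34 and 10.19 with DMSO against 9.73 and 9.37 with GSI in WT, and 10.76 and 10.77 against 10.08 and 10.01 in IkL/L. The highest means were thus those of IkL/L cells under DMSO and the lowest those of WT cells under GSI, with no overlap between groups. In such bulk samples, fewer cells in mitosis and less of each transcript per cell cannot be told apart. The GAPDH difference moved with the treatment, and with it as a covariate 22 genes fell and 1 rose (median -0.47; 7.90% and 12.3% of all genes). With the stromal level as a covariate 41 fell and 2 rose (17.9% and 15.7%). Of the 38 calls, 25 held with each array left out in turn, and 18 held under every alternative run, among them Cdk1, Ccna2, Plk4, Bub1, Mad2l1, Aurkb, Birc5, Nuf2, Kif20a, Ncapg and Espl1.

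**Figure D1:**
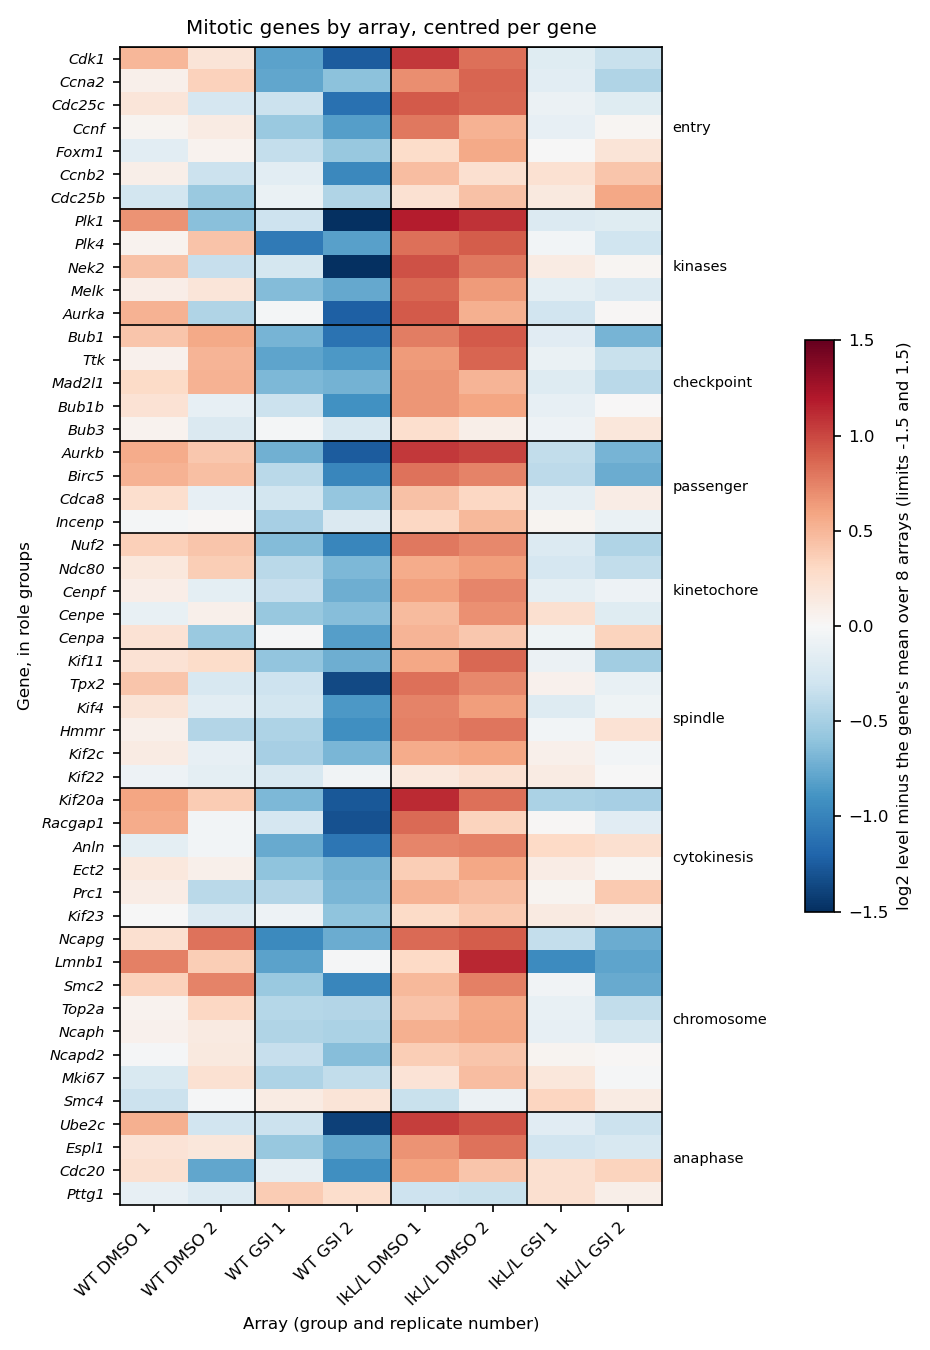
Level of each of the 50 mitotic genes (rows, in role groups) on each of the 8 arrays (columns, 2 per group), as the log2 level minus the gene's mean over the arrays; colours stop at -1.5 and 1.5, and values beyond are drawn at the limit. The IkL/L DMSO arrays are mostly red and the WT GSI arrays mostly blue, while Pttg1 and Smc4, which rose with GSI, run the other way.

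Genes that drive entry into mitosis fell in 4 of 7 cases (median log2 difference -0.74). Cdk1, the gene of the kinase that starts mitosis, was at 10.69 and 10.38 with DMSO against 9.38 and 8.94 with GSI in WT, and 11.25 and 11.02 against 10.00 and 9.85 in IkL/L. All 4 GSI arrays lay below the DMSO arrays of their genotype, and Cdk1 fell by a log2 value of 1.29 ± 0.14 (SE; 2.44-fold; limma, adjusted p = 0.0007). The other genes are given in the same way, as the average log2 difference ± SE. Ccna2, encoding cyclin A2, which serves both S phase and mitotic entry, was at 10.77 and 11.04 with DMSO against 9.91 and 10.07 with GSI in WT, and 11.39 and 11.57 against 10.53 and 10.24 in IkL/L, and fell (-1.002 ± 0.12). Cdc25c, the gene of a phosphatase that activates CDK1, was at 7.91 and 7.47 with DMSO against 7.39 and 6.60 with GSI in WT, and 8.64 and 8.58 against 7.64 and 7.54 in IkL/L, and fell (-0.86 ± 0.20). Ccnf, encoding cyclin F, the substrate receptor of an SCF ubiquitin ligase, was at 9.07 and 9.16 with DMSO against 8.48 and 8.21 with GSI in WT, and 9.82 and 9.56 against 8.91 and 9.06 in IkL/L, and fell (-0.74 ± 0.13). For each of these 3 genes the GSI arrays lay below the DMSO arrays within each genotype. The other members of this group did not pass: Foxm1, the transcription factor gene, differed by -0.37 ± 0.14 (adjusted p = 0.1), Ccnb2, encoding cyclin B2, by -0.24 ± 0.19 (adjusted p = 0.46), and the phosphatase gene Cdc25b by 0.09 ± 0.16 (adjusted p = 0.77). The treatments overlapped in both genotypes for Ccnb2 and Cdc25b.

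Of the 5 mitotic kinase genes 3 fell (median -0.92). Plk1, encoding the Polo-like kinase that acts from mitotic entry to cytokinesis, was at 9.59 and 8.29 with DMSO against 8.61 and 7.30 with GSI in WT, and 10.10 and 10.00 against 8.71 and 8.74 in IkL/L. Its replicates lay over 2-fold apart in both WT groups and the WT arrays overlapped, so its fall (-1.16 ± 0.34; adjusted p = 0.044) carried a larger error than most. Plk4, the gene of the kinase that licenses centriole duplication, was at 10.73 and 11.11 with DMSO against 9.62 and 9.86 with GSI in WT, and 11.50 and 11.59 against 10.64 and 10.39 in IkL/L. It fell (-1.11 ± 0.13) with little spread between replicates and no overlap in either genotype. Melk, a kinase gene expressed with the proliferation genes, was at 9.55 and 9.63 with DMSO against 8.79 and 8.67 with GSI in WT, and 10.30 and 10.08 against 9.29 and 9.24 in IkL/L, and fell (-0.89 ± 0.12). Nek2, encoding a kinase that splits the centrosomes, was at 10.37 and 9.59 with DMSO against 9.67 and 8.22 with GSI in WT, and 10.89 and 10.72 against 10.06 and 9.96 in IkL/L. The gap of its WT GSI replicates was larger than its difference, which did not pass (-0.92 ± 0.31, adjusted p = 0.069). Aurka, the gene of the spindle pole kinase Aurora A, did not pass either (-0.76 ± 0.30, adjusted p = 0.12).

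Spindle assembly checkpoint genes fell in 4 of 5 cases (median -0.99). Bub1, a kinase gene of the kinetochore checkpoint, was at 10.47 and 10.62 with DMSO against 9.36 and 8.95 with GSI in WT, and 10.82 and 10.98 against 9.88 and 9.36 in IkL/L. It had the largest difference of the group (-1.33 ± 0.16), 2.52-fold. Ttk, encoding the MPS1 kinase at the head of the checkpoint, was at 8.32 and 8.77 with DMSO against 7.46 and 7.40 with GSI in WT, and 8.89 and 9.13 against 8.15 and 7.93 in IkL/L, and fell (-1.04 ± 0.15). Mad2l1, whose product MAD2 holds back the APC/C, was at 11.49 and 11.72 with DMSO against 10.53 and 10.49 with GSI in WT, and 11.86 and 11.70 against 11.01 and 10.80 in IkL/L, and fell (-0.99 ± 0.10). In these 3 genes the arrays of the treatments did not overlap in either genotype. Bub1b, encoding BUBR1, was at 11.52 and 11.17 with DMSO against 10.98 and 10.38 with GSI in WT, and 11.95 and 11.88 against 11.18 and 11.30 in IkL/L, and fell less (-0.67 ± 0.15). Bub3, the gene of the adaptor that brings BUB1 and BUBR1 to kinetochores, was among the brightest genes of the array. It did not pass on the probe set used (-0.09 ± 0.10, adjusted p = 0.63), and its other probe sets are described below.

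All 4 genes of the chromosomal passenger complex, which corrects faulty spindle attachments and then directs cytokinesis, fell (median -0.85). Aurkb, encoding its kinase Aurora B, was at 10.17 and 10.01 with DMSO against 8.89 and 8.36 with GSI in WT, and 10.67 and 10.62 against 9.24 and 8.91 in IkL/L. Its fall of 1.52 ± 0.16 on the log2 scale (2.86-fold; limma, adjusted p = 0.00052) was the largest of the 50 genes. Birc5, the gene of survivin, was at 10.22 and 10.14 with DMSO against 9.29 and 8.71 with GSI in WT, and 10.51 and 10.44 against 9.30 and 8.95 in IkL/L, and fell (-1.26 ± 0.16). Cdca8, encoding borealin, was at 12.22 and 11.85 with DMSO against 11.69 and 11.39 with GSI in WT, and 12.41 and 12.28 against 11.84 and 12.08 in IkL/L, and Incenp, the gene of the scaffold that activates Aurora B, at 12.11 and 12.16 with DMSO against 11.64 and 11.93 with GSI in WT, and 12.45 and 12.63 against 12.18 and 12.05 in IkL/L. Their differences were smaller (-0.44 ± 0.12 and -0.39 ± 0.09). For Cdca8 the fall was larger on the other probe sets, and for Incenp on some but not all of them. These are described with the probe sets of the other genes.

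Centromere and kinetochore genes fell in 4 of 5 cases (median -0.65). Nuf2 and Ndc80 encode partners in the NDC80 complex, which grips the microtubule end. Nuf2 was at 9.75 and 9.81 with DMSO against 8.74 and 8.41 with GSI in WT, and 10.18 and 10.10 against 9.19 and 8.94 in IkL/L, and fell (-1.14 ± 0.13). Ndc80 was at 9.01 and 9.22 with DMSO against 8.45 and 8.18 with GSI in WT, and 9.42 and 9.48 against 8.60 and 8.48 in IkL/L, and fell (-0.85 ± 0.13). For both, every GSI array lay below every DMSO array of its genotype. Cenpf, the gene of a large protein of the outer kinetochore, was at 10.30 and 10.06 with DMSO against 9.87 and 9.47 with GSI in WT, and 10.82 and 10.94 against 10.06 and 10.13 in IkL/L, and Cenpe, encoding a kinetochore kinesin, at 9.26 and 9.45 with DMSO against 8.81 and 8.73 with GSI in WT, and 9.85 and 10.06 against 9.61 and 9.20 in IkL/L. These fell by smaller amounts (-0.65 ± 0.13 and -0.57 ± 0.14). Cenpa, the centromeric histone H3 variant gene, did not pass (-0.29 ± 0.23, adjusted p = 0.45).

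Of 6 genes of spindle kinesins and microtubule factors 5 fell (median -0.65). Kif11, encoding the EG5 motor that pushes the spindle poles apart, was at 9.73 and 9.79 with DMSO against 8.91 and 8.77 with GSI in WT, and 10.09 and 10.38 against 9.42 and 8.99 in IkL/L, and fell (-0.97 ± 0.14). Tpx2, whose product activates Aurora A on the spindle, was at 10.64 and 9.98 with DMSO against 9.91 and 8.87 with GSI in WT, and 11.05 and 10.94 against 10.28 and 10.10 in IkL/L. Its WT GSI replicates differed over 2-fold, and it fell with an error larger than that of Kif11 (-0.86 ± 0.24; adjusted p = 0.035). Kif4, a chromokinesin gene, was at 9.10 and 8.74 with DMSO against 8.63 and 8.04 with GSI in WT, and 9.65 and 9.53 against 8.71 and 8.85 in IkL/L, and Hmmr, encoding a spindle pole protein, at 9.64 and 9.13 with DMSO against 9.10 and 8.65 with GSI in WT, and 10.33 and 10.37 against 9.53 and 9.79 in IkL/L. Both fell (-0.70 ± 0.17 and -0.60 ± 0.17), with no overlap of the treatments within a genotype. Kif2c, the gene of a kinesin that takes microtubules apart at centromeres, was at 10.22 and 9.98 with DMSO against 9.60 and 9.41 with GSI in WT, and 10.66 and 10.69 against 10.17 and 10.05 in IkL/L, and fell (-0.58 ± 0.12). Kif22, another chromokinesin gene, did not pass (-0.08 ± 0.10, adjusted p = 0.62).

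Central spindle and cytokinesis genes fell in 4 of 6 cases (median -0.62). Kif20a, encoding the kinesin MKLP2 that carries Aurora B to the central spindle, was at 9.26 and 9.06 with DMSO against 8.00 and 7.40 with GSI in WT, and 9.80 and 9.50 against 8.20 and 8.18 in IkL/L. It fell 2.75-fold (-1.46 ± 0.17), with a response of -1.46 ± 0.24 in WT and -1.46 ± 0.24 in IkL/L. Racgap1, the gene of a centralspindlin subunit, was at 9.34 and 8.74 with DMSO against 8.53 and 7.48 with GSI in WT, and 9.63 and 9.11 against 8.80 and 8.62 in IkL/L, and fell close to the threshold (-0.85 ± 0.26; adjusted p = 0.048) but not with the GAPDH covariate, where it was 0.06. Anln, encoding the contractile ring scaffold anillin, was at 9.36 and 9.47 with DMSO against 8.75 and 8.42 with GSI in WT, and 10.24 and 10.27 against 9.81 and 9.74 in IkL/L, and fell (-0.65 ± 0.12). Ect2, the gene of the exchange factor that activates RhoA at the cleavage plane, was at 10.57 and 10.48 with DMSO against 9.81 and 9.70 with GSI in WT, and 10.78 and 10.99 against 10.52 and 10.44 in IkL/L, and fell (-0.59 ± 0.11). For Anln and Ect2 the lowest arrays were those of WT GSI, and the IkL/L GSI arrays lay close to or above WT DMSO. Prc1, a microtubule bundling factor gene, and Kif23, encoding the other centralspindlin subunit, did not pass (-0.35 ± 0.15, adjusted p = 0.15; -0.24 ± 0.14, adjusted p = 0.31).

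Genes of condensin, chromosome structure and the nuclear lamina were divided (median -0.66), with 6 of 8 lower, Smc4 higher and Mki67 not passing. Ncapg, encoding a condensin I subunit, was at 9.69 and 10.26 with DMSO against 8.50 and 8.70 with GSI in WT, and 10.30 and 10.36 against 9.09 and 8.71 in IkL/L, and fell 2.64-fold (-1.40 ± 0.17). Smc2, the gene of a core ATPase of both condensins, was at 10.81 and 11.21 with DMSO against 9.91 and 9.49 with GSI in WT, and 10.95 and 11.23 against 10.42 and 9.72 in IkL/L, and fell (-1.16 ± 0.19). Its partner gene in the same ATPase pair, Smc4, was at 12.92 and 13.22 with DMSO against 13.37 and 13.43 with GSI in WT, and 12.90 and 13.15 against 13.56 and 13.36 in IkL/L. Smc4 was higher on the GSI arrays in both genotypes and rose (0.38 ± 0.09; adjusted p = 0.019). The call was lost without WT DMSO replicate 1 (0.31, adjusted p = 0.06), IkL/L DMSO replicate 1 (0.32, 0.079) or IkL/L GSI replicate 1 (0.33, 0.073), with the mean of its probe sets (0.32, 0.078) and with the GAPDH covariate (0.17, 0.4). The condensin I genes Ncaph (-0.66 ± 0.09) and Ncapd2 (-0.46 ± 0.11) fell. Lmnb1, encoding lamin B1, was at 10.07 and 9.68 with DMSO against 8.51 and 9.30 with GSI in WT, and 9.61 and 10.44 against 8.37 and 8.53 in IkL/L, and fell (-1.27 ± 0.24), with a wide gap between the WT GSI replicates and between those of IkL/L DMSO. Top2a, the gene of the topoisomerase that untangles sister chromatids, was at 12.59 and 12.85 with DMSO against 12.11 and 12.10 with GSI in WT, and 12.96 and 13.10 against 12.43 and 12.16 in IkL/L, and fell (-0.67 ± 0.09). Mki67, which encodes the proliferation marker Ki-67, was among the brightest of the 50 genes and did not pass (-0.34 ± 0.11, adjusted p = 0.069), although its GSI arrays lay below its DMSO arrays in each genotype.

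The 4 genes of anaphase promotion differed in direction. Ube2c, encoding the ubiquitin-conjugating enzyme of the APC/C, was at 10.88 and 10.05 with DMSO against 10.02 and 8.94 with GSI in WT, and 11.38 and 11.29 against 10.17 and 10.03 in IkL/L, and fell (-1.11 ± 0.26; adjusted p = 0.016). Espl1, the gene of separase, which cuts cohesin, was at 9.30 and 9.26 with DMSO against 8.52 and 8.32 with GSI in WT, and 9.76 and 9.91 against 8.80 and 8.86 in IkL/L, and fell (-0.93 ± 0.12). Pttg1 encodes securin, the inhibitor that holds separase until anaphase. It was at 11.47 and 11.38 with DMSO against 11.96 and 11.86 with GSI in WT, and 11.28 and 11.25 against 11.83 and 11.67 in IkL/L, higher on all 4 GSI arrays, and rose on this probe set (0.49 ± 0.08; adjusted p = 0.0045), the brightest of 3. Cdc20, an activator gene of the APC/C, was at 11.94 and 10.91 with DMSO against 11.56 and 10.77 with GSI in WT, and 12.30 and 12.11 against 11.94 and 12.03 in IkL/L. The WT arrays of Cdc20 overlapped between treatments and it did not pass (-0.24 ± 0.24, adjusted p = 0.57).

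**Figure D2:**
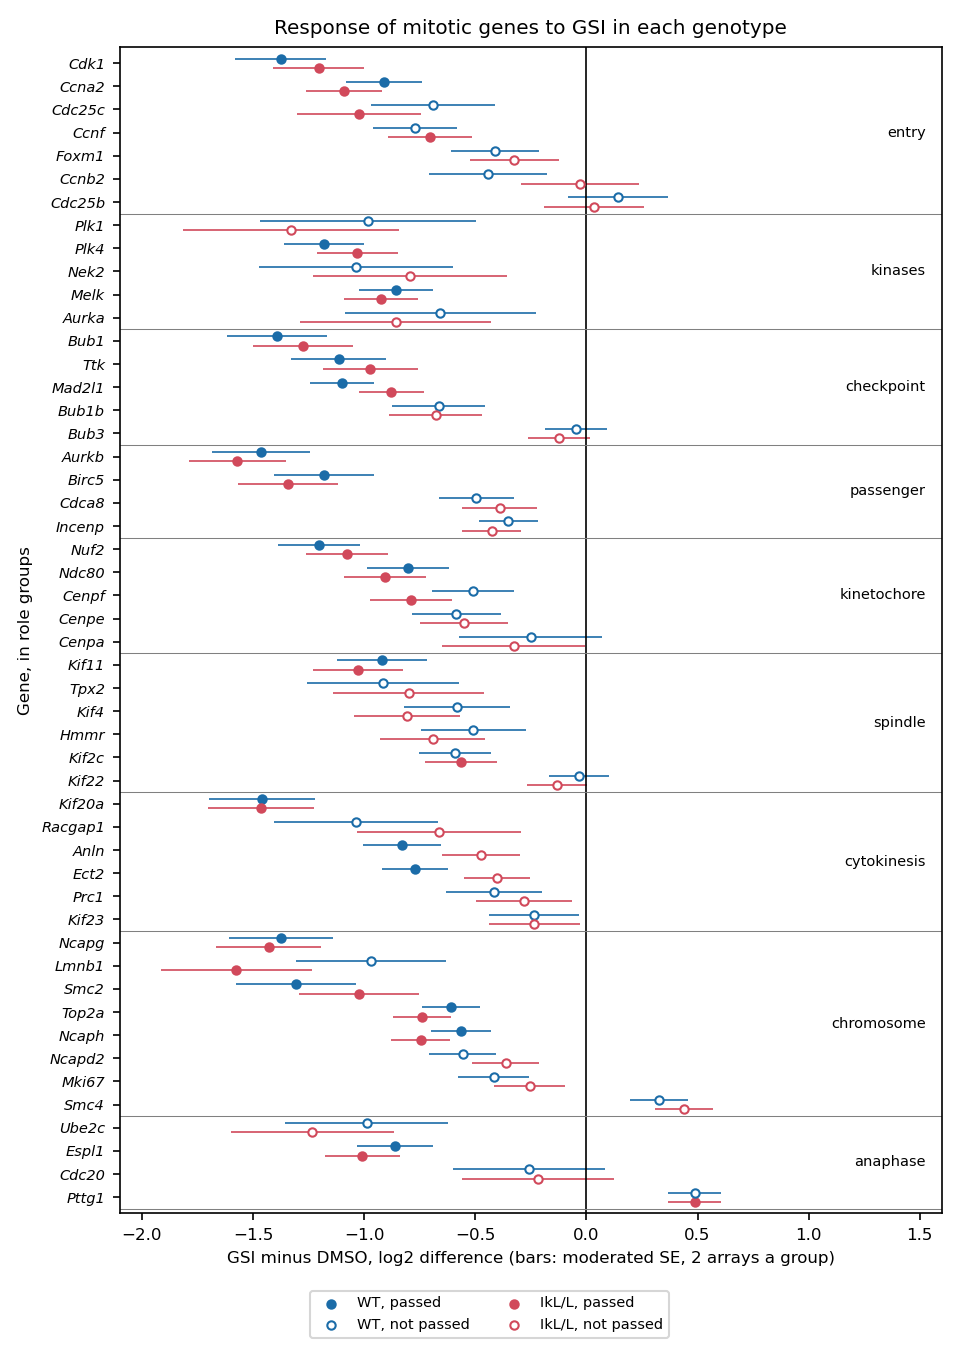
Response to GSI (GSI minus DMSO, log2 difference with moderated standard error, 2 arrays a group) of each of the 50 genes in WT (blue) and IkL/L (red) cells; filled points passed limma at an adjusted p below 0.05. Most points lie left of 0 in both genotypes, with Aurkb, Kif20a and Ncapg near -1.5, and Pttg1, Smc4 and Cdc25b lie right of 0.

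Promoters were searched for the letters of the elements named above. Windows of 300 bases (250 before to 50 after an annotated start) were present in the RefSeq table (build GRCm38.p6) for 41 of the 50 genes, as 44 windows. The first form of the CHR searched was TTTGAA, and a variant of it, TTCGAA, was searched as well. CCAAT boxes were searched by those letters, and E2F letters as TTTCCCGC, TTTCGCGC, TTTGCCGC or TTTGGCGC. Both strands were read, and matches of different motifs were allowed to overlap. CHR letters were in 79.5% of the 44 windows against 17.6% of the 21262 windows of protein-coding genes, and CCAAT in 77.3% against 38.2%. Both were in 72.7% against 7.11%, while E2F letters were in 6.82% against 2.85%. Windows of the G1/S and replication genes (24 windows of 20 genes) held CHR letters in 20.8% and E2F letters in 37.5%. Restricted to the 150 bases before the start, CHR letters were in 38.6% of the members' windows against 8.65%, and CCAAT in 72.7% against 26.4%. A match is a description of letters and not a binding site.

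The 150 bases before the annotated start are shown for 7 genes that span the responses: 5 that fell, Cdc20, which did not pass, and Pttg1, which rose. Capitals mark CHR, CCAAT or E2F letters on either strand, and each line reads 5′ to 3′ along the gene.
Cdk1: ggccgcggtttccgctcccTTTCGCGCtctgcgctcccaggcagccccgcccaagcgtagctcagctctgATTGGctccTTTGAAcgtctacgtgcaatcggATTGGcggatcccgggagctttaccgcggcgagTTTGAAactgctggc
Top2a: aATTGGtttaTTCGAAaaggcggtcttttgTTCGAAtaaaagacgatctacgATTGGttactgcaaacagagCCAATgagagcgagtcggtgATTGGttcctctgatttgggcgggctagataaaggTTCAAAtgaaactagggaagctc
Ube2c: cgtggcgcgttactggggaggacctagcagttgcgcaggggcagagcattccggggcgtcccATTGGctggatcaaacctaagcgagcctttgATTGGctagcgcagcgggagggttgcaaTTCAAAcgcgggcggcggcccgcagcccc
Kif11: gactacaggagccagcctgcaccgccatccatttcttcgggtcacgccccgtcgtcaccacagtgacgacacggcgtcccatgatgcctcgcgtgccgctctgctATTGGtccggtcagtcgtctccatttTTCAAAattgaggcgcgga
Espl1: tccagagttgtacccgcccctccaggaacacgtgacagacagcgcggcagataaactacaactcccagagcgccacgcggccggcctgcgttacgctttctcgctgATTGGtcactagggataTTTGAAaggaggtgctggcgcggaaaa
Cdc20: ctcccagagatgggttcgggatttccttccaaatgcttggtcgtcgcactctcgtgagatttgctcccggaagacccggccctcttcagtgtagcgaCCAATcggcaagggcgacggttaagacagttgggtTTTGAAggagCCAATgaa
Pttg1: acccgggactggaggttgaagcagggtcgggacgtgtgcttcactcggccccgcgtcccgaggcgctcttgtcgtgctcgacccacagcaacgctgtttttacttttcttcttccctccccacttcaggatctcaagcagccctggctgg

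These lie, in that order, at chr10:69352913-69353062 on the minus strand, chr11:99024190-99024339 on the minus strand, chr2:164769779-164769928 on the plus strand, chr19:37376232-37376381 on the plus strand, chr15:102296143-102296292 on the plus strand, chr4:118437344-118437493 on the minus strand and chr11:43425982-43426131 on the minus strand. Cdk1 held 2 CHR, 2 CCAAT and 1 E2F match in this stretch, the last at position -131, and its CHR letters began at -71 and -15. Top2a held 3 CHR and 4 CCAAT matches. In Ube2c, Kif11 and Espl1 a single CHR match began at -29, -19 and -27, with CCAAT letters upstream of it. Cdc20, whose level did not pass, had the same kind of pair, a CHR match at -18 and CCAAT at -53 and -8. The stretch of Pttg1 held none of the letters searched, nor did its whole window. None of the 3 motifs was in the windows of Birc5, Mad2l1, Melk, Ncaph, Nuf2 and Plk4 either, which fell. Of the 32 members with CHR letters 22 fell (median -0.66), and of the 9 without 7 fell (median -0.92).

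Taken within each genotype, fewer genes passed. In WT cells 20 of the 50 fell and 0 rose (limma, 4.16% and 2.31% of all genes). An unadjusted p below 0.05 was seen for 38 of the 50, against 3839 of all 18193 genes. The GSI arrays lay below the DMSO arrays for 38 (19.8% of all genes). In IkL/L cells 23 fell and Pttg1 rose (9.09% and 7.70% of all genes), and the GSI arrays lay below the DMSO arrays for 45 (35.9% of all genes). The count of 20 in WT dropped without WT GSI replicate 2, and was nearly lost without either WT DMSO array. It also dropped without an IkL/L DMSO array, which enters only through the shared estimate of spread. The share of all genes called dropped in the same runs. With only the 4 WT arrays the count was 0, and 0.00550% of all genes were called lower. The 24 called in IkL/L became far fewer without either IkL/L DMSO array or without IkL/L GSI replicate 2, and so did the calls over all genes. Both responses were called for 18 genes, among them Cdk1, Plk4, Bub1, Aurkb, Nuf2, Kif20a, Ncapg and Espl1 (3.89% of all genes were called lower in both). Ect2 and Anln passed in WT (-0.77 ± 0.15 and -0.83 ± 0.18) and not in IkL/L (-0.40 ± 0.15 and -0.48 ± 0.18), while Ccnf, Cdc25c, Cenpf, Kif2c and Lmnb1 passed in IkL/L and not in WT.

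The difference between the responses was tested as an interaction, and 0 of the 50 genes passed (limma; 0.0440% of all genes did, and 0 of the 50 had an unadjusted p below 0.05, against 5.99% of all genes). The IkL/L response was more negative than the WT response for 25 genes and less negative for the other 25, with a median difference of 0.00. For Cdk1 the difference was 0.17 ± 0.29 and for Anln 0.35 ± 0.25; for Lmnb1 it was -0.61 ± 0.48 and for Ccnb2 0.41 ± 0.38, the extremes of the 50. The 95% interval of the difference included 0 for all 50 genes and lay within a 2-fold change either way for 38, so for the other 12 a difference of that size was not excluded. Across the 50 genes the WT and IkL/L responses, which share no arrays, had Pearson's r = 0.905 and Spearman's rho = 0.891, against 0.841 and 0.724 over all genes; these are descriptions across genes, which are not independent replicates.

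Levels of most of the 50 mitotic genes lay above WT in IkL/L cells with either treatment, though few differences passed singly. Under DMSO the difference was above 0 for 48 of the 50 genes (median 0.48; all genes 0.03), and under GSI for 48 (median 0.49; all genes -0.04). Few passed singly. Under DMSO 0 did (limma, 0.709% of all genes were called higher and 1.03% lower). Under GSI Anln did (0.945% higher and 0.517% lower). Of the 50, 24 had an unadjusted p below 0.05 under DMSO and 27 under GSI, against 1854 and 1946 of all 18193 genes. Both IkL/L arrays lay above both WT arrays for 43 genes under DMSO (22.4% of all genes), for 41 under GSI (14.0%) and for 38 under both treatments (6.39%). Pttg1 was the 1 gene lower on the IkL/L arrays under both (6.19%). These comparisons share arrays with the responses to GSI.

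A contrast of the genotypes averaged over both treatments, added after these values were seen, called 9 genes higher and 0 lower (1.97% and 1.83% of all genes). They were Anln (1.01 ± 0.12; adjusted p = 0.0036), Hmmr (0.87 ± 0.17), Prc1 (0.71 ± 0.15), Plk4 (0.70 ± 0.13), Cdk1 (0.68 ± 0.14), Ccnf (0.61 ± 0.13), Kif2c (0.59 ± 0.12), Melk (0.57 ± 0.12) and Ect2 (0.54 ± 0.11). Anln was 1.79-fold higher under DMSO (0.84 ± 0.18, adjusted p = 0.065) and 2.28-fold under GSI (1.19 ± 0.18, adjusted p = 0.016). Hmmr differed by 0.96 ± 0.24 and 0.78 ± 0.24. Prc1 was at 10.34 and 9.83 with DMSO against 9.79 and 9.55 with GSI in WT, and 10.76 and 10.70 against 10.28 and 10.62 in IkL/L, so that its IkL/L GSI arrays overlapped its WT DMSO arrays. Larger differences with larger errors did not pass for Nek2 (0.94 ± 0.31, adjusted p = 0.19), Plk1 (0.94 ± 0.34, adjusted p = 0.26) and Cdc20 (0.80 ± 0.24, adjusted p = 0.15). By role, the median difference was largest for the mitotic kinases (0.70) and the entry genes (0.67) and smallest for the chromosome structure genes (0.29). The median SE of a gene in these groups was 0.30, 0.14 and 0.11, and the groups were not tested against each other. The count of 9 dropped without WT GSI replicate 2 or either WT DMSO array, and dropped most without any single IkL/L array. It grew without WT GSI replicate 1. The share of all genes called higher moved the same way in each of these runs. With a stromal covariate the count was 30, all higher, when 4.09% of all genes were called higher. With the GAPDH covariate it was 32, all higher, against 5.56%.

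**Figure D3:**
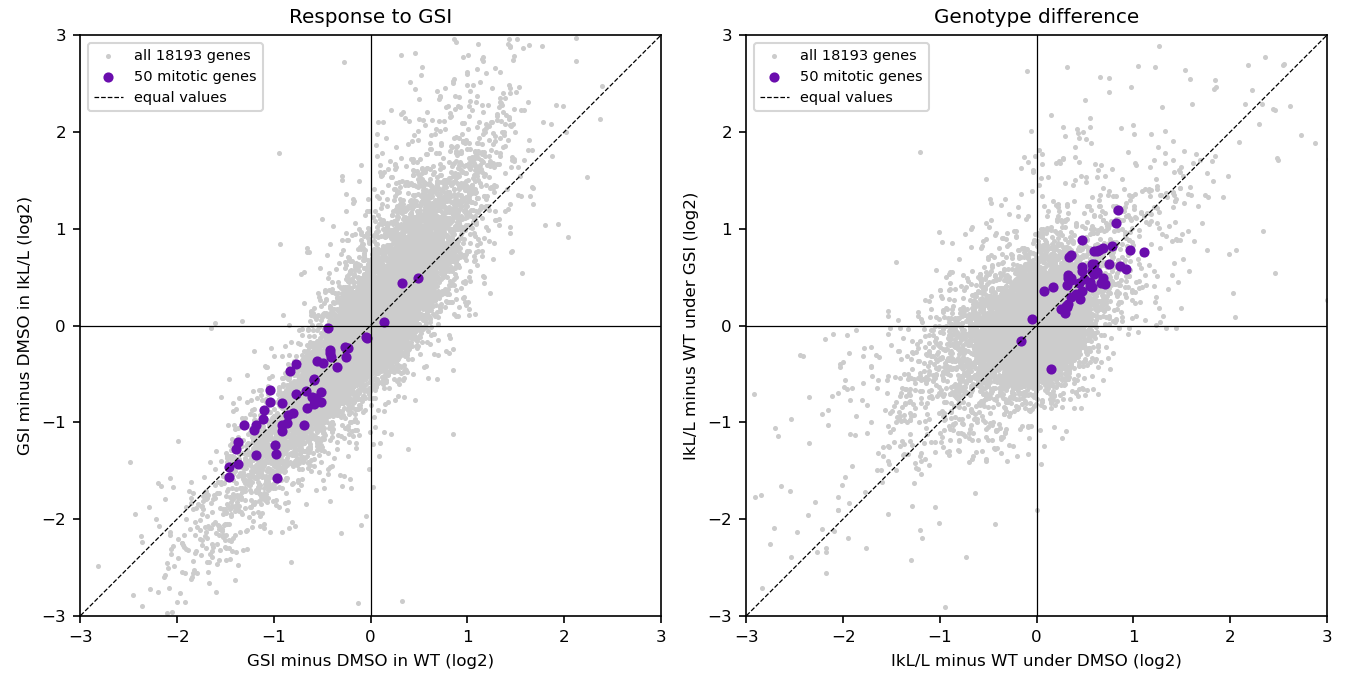
Left, the response to GSI in WT (horizontal) against that in IkL/L cells (vertical); right, the IkL/L minus WT difference under DMSO (horizontal) against that under GSI (vertical), all as log2 differences, for the 50 mitotic genes (purple) and all 18193 genes (grey); axes stop at -3 and 3, which leaves out 23 and 33 genes. The purple points follow the line of equal values on the left, mostly below 0, and on the right 47 of the 50 lie above 0 on both axes.

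Other genes of mitosis, taken from 7 lists of 100 measured genes that do not include the 50, were read in the same average: 55 fell, Numa1 rose and 44 did not pass (median -0.61). Kinetochore genes were close to the members, with 12 of 15 inner and 11 of 16 outer kinetochore genes lower. Examples were Cenph (-1.72 ± 0.19) and Cenpk (-1.45 ± 0.20) of the inner plate, and Ska3 (-1.26 ± 0.15) and Spc24 (-1.10 ± 0.11) of the outer kinetochore. Mitotic entry control genes fell in 8 of 11 cases, among them Mastl (-1.11 ± 0.19), the Greatwall kinase gene, Bora (-1.08 ± 0.17), whose product helps Aurora A activate PLK1, and Cdc25a (-1.02 ± 0.11), a phosphatase gene of S phase and mitotic entry. Of 17 centrosome and spindle pole genes 10 fell, such as the gamma-tubulin gene Tubg1 (-1.41 ± 0.14), and Numa1, whose product focuses the spindle poles, rose (0.59 ± 0.13; adjusted p = 0.014; named after its value was seen).

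In each of the 3 remaining lists no more than 7 genes passed. In the APC/C list 3 of 15 fell, the ubiquitin-conjugating enzyme gene Ube2s (-1.004 ± 0.31), the APC/C inhibitor gene Fbxo5 (-0.78 ± 0.21) and the subunit gene Cdc26 (-0.42 ± 0.12). In the cohesin list 7 of 14 fell, led by the acetyltransferase gene Esco2 (-1.83 ± 0.33), sororin gene Cdca5 (-1.10 ± 0.11) and the shugoshin genes Sgo2a (-1.06 ± 0.15) and Sgo1 (-0.87 ± 0.16). Among 12 DREAM and MuvB genes 4 fell: Mybl2, encoding B-MYB (-1.96 ± 0.15; adjusted p = 0.00021), Tfdp1 (-1.45 ± 0.16), the p107 gene Rbl1 (-1.04 ± 0.14) and Lin54 (-0.93 ± 0.22), whose product reads CHR elements. For comparison, 23 of 24 G1/S and replication genes fell, with a median of -1.36, such as Cdc6 (-2.16 ± 0.21) and Gins1 (-1.87 ± 0.11); the difference between these lists was not tested. Between the genotypes, averaged over both treatments, the G1/S genes had a median of 0.15 with 0 of 24 called by limma (4 at an unadjusted p below 0.05). The 100 other mitotic genes had a median of 0.20 with 5 called higher (23 unadjusted). The members had 0.52 with 9 of 50 called (40 unadjusted). Of all 18193 genes 358 were called higher, and 2452 had an unadjusted p below 0.05. These lists were not tested against each other. Cdkn1a, the gene of the CDK inhibitor p21, rose with GSI (2.27 ± 0.10).

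**Figure D4:**
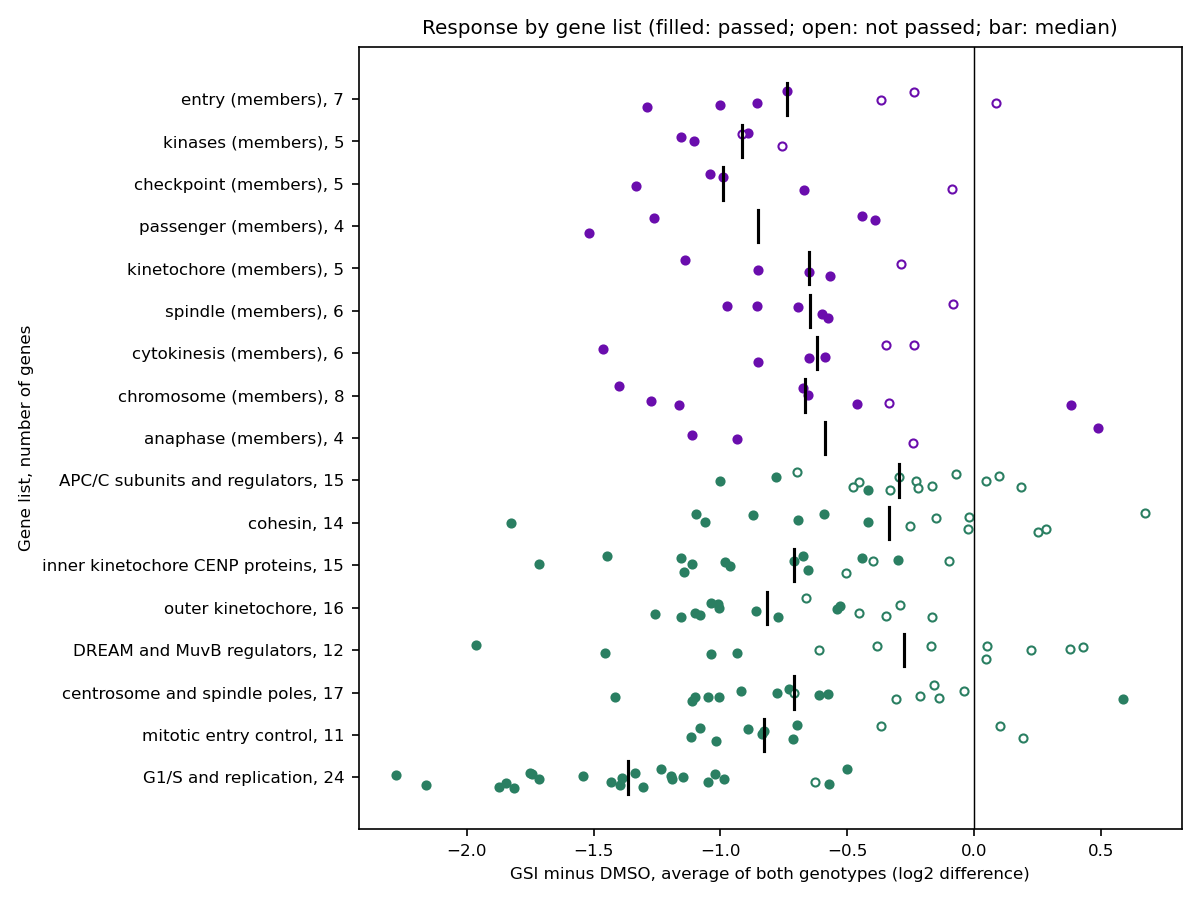
Response to GSI averaged over both genotypes (log2 difference, horizontal) of each gene in the 9 role groups of the 50 mitotic genes (purple), 7 further mitotic lists and the G1/S and replication genes (green); filled points passed, open points did not, and bars are medians. Kinetochore and entry lists lie near the members, the APC/C, cohesin and DREAM lists nearer 0, and the G1/S list furthest left with a median of -1.36.

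Since 35 of the 50 genes had several probe sets, the choice of the brightest was examined. Besides the 50 used, 45 probe sets of 31 members lay above the median gene level, and 43 of them had the sign of the probe set used. In a fit over all 34945 probe sets, 24 of the 45 were called lower and 1, for Smc4, higher. Of all probe sets 11.4% were called lower and 7.79% higher. Of the 45, 33 were more negative than the probe set used. Of the 50 used, 14 have names ending in x_at or s_at, endings that the array's maker gives to probe sets with probes shared between transcripts. Kif22 was read on such a probe set at -0.08 ± 0.09 (SE), while its others gave -0.99 ± 0.20 (adjusted p = 0.013) and -0.90 ± 0.23 (adjusted p = 0.029). Incenp gave -0.39 ± 0.09 on the brightest and -1.08 ± 0.18 on the next, Cdca8 -0.44 ± 0.12, -0.71 ± 0.14 and -1.31 ± 0.35, and Kif2c -0.58 ± 0.11, -1.26 ± 0.29 and -0.13 ± 0.25. Foxm1 did not pass on the one used, but a further probe set gave -0.92 ± 0.13 (adjusted p = 0.0031). For Pttg1 the further probe sets gave -0.01 ± 0.25 and 0.23 ± 0.16 and did not pass, so its rise rests on 1 probe set. For Smc4 all 3 were above 0, at 0.38 ± 0.09, 0.24 ± 0.15 and 0.35 ± 0.10. With the mean over a gene's probe sets, 33 of the 50 genes fell and 0 rose (12.3% and 8.93% of all genes).

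**Figure D5:**
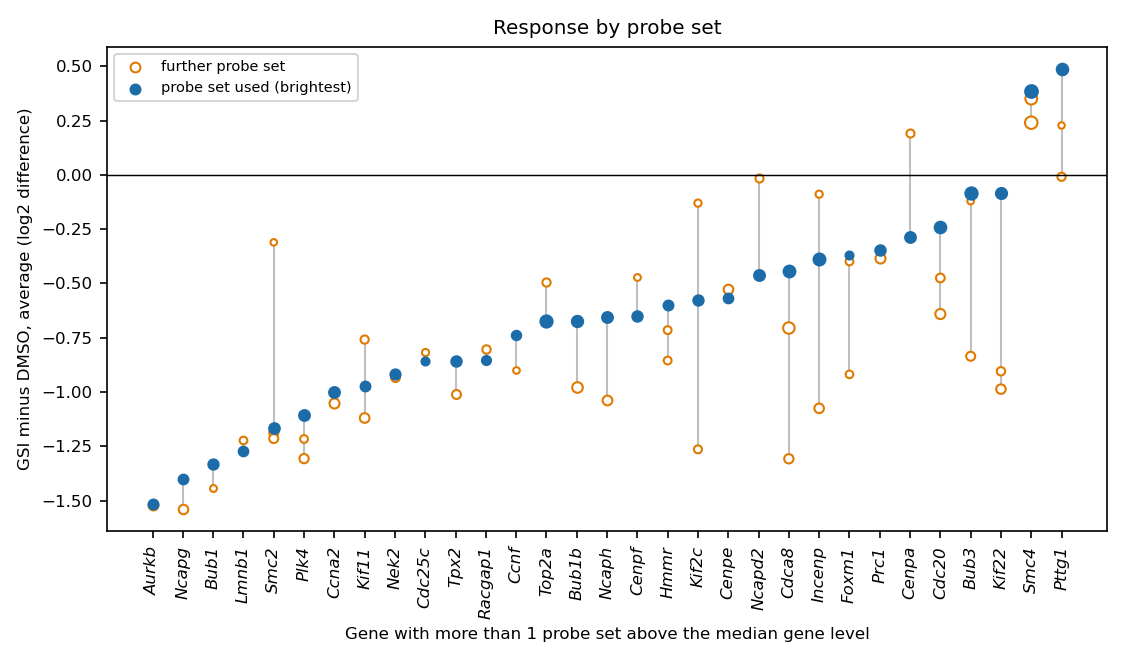
Response to GSI averaged over both genotypes (log2 difference, vertical) by probe set, for the 31 genes with more than 1 probe set above the median gene level; filled blue points are the probe sets used, open orange points the others, and point size grows with the mean level. Probe sets lie close for Aurkb, Ccna2 and Nek2 and far apart for Kif22, Incenp, Cdca8, Bub3 and Kif2c.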

How the data were processed

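RNA of 8 mouse DN3 cell samples had been hybridised to Affymetrix arrays, 2 per group. The deposited log2 values had been made with RMA, per the submitters' processing notes, which corrects background, quantile-normalizes the arrays and summarises probes, so values are relative within this set; its version is not given in the sources used here. Labels mention different RNA input amounts without tying them to samples, and name no batch. No column of values was left unused.

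The arrays hold 45101 probe sets. Left out were 64 controls, 932 that name several genes and 9160 without an entry in the platform annotation. Each of 18193 genes was read on its brightest probe set, by the mean of the 8 arrays. The 4 groups were terms of 1 limma model (version 3.58.1, R 4.3.3; moderated with a mean-variance trend; 4 residual degrees of freedom), and p-values were adjusted over all genes (Benjamini-Hochberg, two-sided; threshold 0.05). Checked on simulated data, the average response recovered 64 of 100 genes changed by a log2 of 1 and 95 of 100 changed by 2. It made 16 false calls. The interaction recovered 20 and 73, with 4 false calls. In the measured average response 10.8% of all genes were called higher and 12.5% lower, far more than were changed in the simulation. These rates therefore do not give the sensitivity for the mitotic genes. Precision is limited by having 2 arrays a group.

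The 50 genes, their role groups and the other lists were chosen with earlier results of these data known. In each role group, array values are given for up to 4 genes with the largest average difference, for those called higher and for those called between genotypes; of other lists, up to 4 called genes with the largest difference are named, and Ikzf1 and Cdkn1a are named as checks. Marker genes of other cell types that moved were named after their values were seen. Of 103 genes in the other mitotic lists 100 were measured. Alternatives were the replicate block, other handling of probe sets, normalization and trend, arrays left out, and stromal and GAPDH covariates. Motifs were searched with Python 3.11.15 in promoter windows of RefSeq (GRCm38.p6); figures were drawn with matplotlib 3.10.9.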

Additional observations from a re-analysis of the deposited data

How the results depend on the processing

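The counts of the 50 genes called by limma changed with the setting as follows. With arrays left out in turn, the average response called 26 to 40 (38 with all arrays), the WT response 0 to 25 (20), the IkL/L response 4 to 31 (24), the genotype difference under DMSO 0 to 1 (0), under GSI 0 to 3 (1) and averaged 1 to 21 (9). With only the arrays compared, the WT response called 0 and the genotype difference under GSI 0. Of all genes 0.00% were then called higher and 0.00550% lower in WT, against 2.31% and 4.16% with all arrays. In IkL/L the shares rose to 11.8% and 13.1%, from 7.70% and 9.09%. For the genotype difference under GSI they were 0.429% and 0.126%, against 0.945% and 0.517% with all arrays. The reason for these changes was not tested. With the stromal level as a covariate, the WT and IkL/L responses called 37 each, and the genotype differences 6 under DMSO, 6 under GSI and 30 averaged. Shares over all genes rose as well. In WT 7.29% were called higher and 10.4% lower, and in IkL/L 13.1% and 15.8%. For the genotype differences the shares were 1.78% and 3.05% under DMSO, 2.56% and 2.50% under GSI, and 4.09% and 5.23% averaged. Each was above its share without the covariate. With the GAPDH difference, the average response called 23, and the genotype differences 21, 18 and 32. Of all genes 12.3% were then called higher and 7.90% lower in the average response, against 10.8% and 12.5% without it. For the genotype differences the shares were 2.59% and 3.25% under DMSO, 3.08% and 1.28% under GSI, and 5.56% and 3.58% averaged. These too were above the shares without it. Requantiling called 1 genotype difference under DMSO (0.792% of all genes higher and 1.17% lower). No trend called 1 there (0.819% and 1.12%) and 2 under GSI (0.956% and 0.484%). The mean of probe sets called 0 under GSI (0.797% and 0.440%). Every probe set as a feature called 5 averaged (1.16% and 1.02% of all probe sets). The interaction called 0 in every alternative run.

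Replicate numbers were not shown to pair the arrays: the replicate 1 minus 2 differences correlated across genes at 0.710 (WT DMSO with WT GSI), 0.579 and 0.562 (these with IkL/L DMSO), but at -0.113, 0.025 and -0.010 between IkL/L GSI and the other groups in that order. The numbers thus marked a shared difference in 3 of the 4 groups. With the replicate block, the average response called 41, the WT response 27 and the IkL/L response 31. The genotype differences called 1 under DMSO, 3 under GSI and 19 averaged (2.78% of all genes called higher, against 1.97% without the block). Of all genes the block called 13.4% higher and 14.5% lower in the average response, 4.34% and 6.51% in WT, and 10.4% and 11.6% in IkL/L. For the genotype differences it called 1.19% and 1.79% under DMSO, and 1.57% and 1.02% under GSI.

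Directions that turned were mostly those of genes not passing. With the GAPDH covariate, the responses in WT, IkL/L and on average were 0.28, 0.30 and 0.29 for Aurka, 0.18, 0.15 and 0.16 for Bub3, 0.12, 0.67 and 0.39 for Ccnb2, 0.41, 0.61 and 0.51 for Cdc20, 0.37, 0.43 and 0.40 for Cenpa, and 0.021, 0.083 and 0.052 for Kif23. The IkL/L and average responses became 0.35 and 0.12 for Nek2 and 0.34 and 0.056 for Racgap1, whose average had been called lower, and the IkL/L responses 0.046 for Prc1 and 0.043 for Tpx2. Requantiling gave 0.012 for Ccnb2 in IkL/L and 0.035 for Kif22 in WT, and centring gave -0.0094 for Cdc25b in IkL/L. With arrays left out in turn, WT responses ran from -0.18 to 0.090 for Bub3, -0.77 to 0.25 for Cdc20, -0.039 to 0.32 for Cdc25b, -0.66 to 0.16 for Cenpa, -0.13 to 0.062 for Kif22 and -0.50 to 0.026 for Kif23, IkL/L responses from -0.14 to 0.085 for Ccnb2 and -0.18 to 0.25 for Cdc25b, and averages from -0.50 to 0.018 for Cdc20 and -0.022 to 0.20 for Cdc25b.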

Other observations

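Replicates of the WT groups lay over 2-fold apart for some kinase and anaphase genes. In WT DMSO, Plk1 and Cdc20 were over 2-fold higher on replicate 1 than on replicate 2, by log2 values of 1.31 and 1.03. In WT GSI this held for Nek2 (1.45), Plk1 (1.31), Aurka (1.20), Ube2c (1.08), Racgap1 (1.05) and Tpx2 (1.04). None of the 50 genes differed over 2-fold between the replicates of either IkL/L group. Across the 50 genes the replicate 1 minus 2 differences of WT DMSO and WT GSI had r = 0.742 (a description over genes of the same arrays), and those of WT DMSO and IkL/L GSI r = -0.538.

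For the 12 genes that did not pass in the average response, the median IkL/L minus WT difference over both treatments was 0.59, against 0.51 for the 36 that fell, and the median responses to GSI were -0.26 and -0.87. The genes were split by the response itself, and the difference between these sets was not tested.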
